A study of Mus musculus with 8 samples.

Results

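AP-1 and immediate early genes were followed in cultured mouse keratinocytes that lacked the type I keratin genes (KO) and in wild-type cells. The 10 genes are the Fos family (Fos, Fosb, Fosl1, Fosl2), the Jun family (Jun, Junb, Jund), Egr1, Ier3 and Myc, and every array probe annotated to these symbols was taken. They had 10 probes among the 25697 on the array. Fosl2 had no probe, Myc had 2, and the other genes had 1 each, so 9 of the 10 genes were measured. All 9 had a probe above background on at least 3 arrays and entered the test among 9881 genes.

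AP-1 is a dimer of basic leucine zipper proteins, usually a Fos protein with a Jun protein or a pair of Jun proteins, that binds DNA elements of the form TGANTCA. Immediate early genes are transcribed within minutes of a growth factor or stress signal, without new protein synthesis, through MAP kinases and factors such as SRF. In epidermis AP-1 proteins are known for their different positions in the layers and for their part in differentiation, wound repair and cytokine expression, while Myc promotes growth and proliferation of progenitor cells.

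Keratinocytes of the C57Bl6 strain had been isolated from the skin of E18.5 embryos and grown to confluency, and 4 Illumina arrays were hybridised for the genotype labelled Type I keratin KO and 4 for wild type. Type I keratins are the acidic partners of the keratin pairs that form intermediate filaments in epithelia, and no treatment separated the groups. Each genotype had arrays 1, 2, 3 and 1.1, and the labels call 1.1 a second replica of 1. The SD of the log2 differences was 0.205 between wild-type arrays 1 and 1.1, 0.213 between KO arrays 3 and 1.1, and 0.640 between KO arrays 1 and 1.1. Both close pairs were averaged, which left 3 replicates per genotype. KO replicate 3 therefore stands for arrays 3 and 1.1, and wild-type replicate 1 for arrays 1 and 1.1. By this SD KO arrays 1 and 2 differed by 0.418, while KO array 3 differed from them by 0.640 and 0.595. KO replicate 3 thus stood apart from the other KO replicates. Wild-type arrays 1, 2 and 3 differed from each other by 0.435 to 0.516. The labels do not say whether the replicates came from separate embryos or pooled skin, and p-values cover no more than the spread between these samples, which may be technical. Intensities are on the deposited linear scale, and differences are KO minus wild type in log2(intensity + 16), which understates changes of dim genes.

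The genotype and cell type labels were checked first. Krt17, a deleted type I keratin, was not above the background limit of 6.30 on any KO array and read 17836 to 18312 in the wild-type replicates. Krt14, another deleted type I keratin, was above the limit on 1 of the 4 KO arrays, KO array 2 at 9.28, and read 17836 to 19131 in the wild-type replicates. All 8 keratinocyte markers, among them Krt5 and Trp63, were above background on all 8 arrays. Of 6 measured melanocyte markers 4 were above background on all arrays, and the markers summed to intensities of 357 to 1614 on the KO arrays and 916 to 3469 on the wild-type arrays. Of 6 fibroblast markers 1 was above background on all arrays, and the markers summed to 20.5 to 421 in KO and 45.4 to 906 in wild type, with Col1a2 not above background on any array. Of 6 leukocyte markers 1, Cd3e, was above background on some array, and Ptprc, Cd207, Itgam, Lyz2 and H2-Aa on none. Their sums were 7.02 to 16.3 in KO and 7.47 to 14.3 in wild type. Of 4 endothelial markers 3 were above background on some array and Cdh5 on none, with sums of 17.8 to 26.9 in KO and 12.3 to 20.7 in wild type. Of 3 smooth muscle markers Acta2 was above background on all 8 arrays and Myh11 and Rgs5 on none, with sums of 1446 to 2932 in KO and 695 to 3752 in wild type. The summed levels of these other cell types overlapped between genotypes, and their part in the results was not tested. In a mixed culture, fewer cells of a type and less RNA per cell cannot be told apart.

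The DNA just before the start sites of Fos, Jun and Ier3 is shown because Fos and Jun are the founding partners of AP-1 and Ier3 was one of the 2 genes whose replicates separated by genotype. RefSeq windows on build GRCm38.p6 were matched by symbol for 7 of the 10 genes (Fos, Fosb, Fosl2, Jun, Junb, Jund and Ier3), each with 250 bases before and 50 after the start, and the 250 bases before it are printed 5′ to 3′ on the strand of the gene. The array files name no build, so these coordinates are those of RefSeq. No window of Fosl1, Egr1 or Myc was read, so nothing is said of motifs before them.
Fos (chr12:85473640-85473889, plus strand): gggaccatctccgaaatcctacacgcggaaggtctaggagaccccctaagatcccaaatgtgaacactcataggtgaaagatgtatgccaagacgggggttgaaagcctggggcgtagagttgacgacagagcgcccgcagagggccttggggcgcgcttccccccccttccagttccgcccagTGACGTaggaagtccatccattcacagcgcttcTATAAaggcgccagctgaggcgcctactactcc
Jun (chr4:95052223-95052472, minus strand): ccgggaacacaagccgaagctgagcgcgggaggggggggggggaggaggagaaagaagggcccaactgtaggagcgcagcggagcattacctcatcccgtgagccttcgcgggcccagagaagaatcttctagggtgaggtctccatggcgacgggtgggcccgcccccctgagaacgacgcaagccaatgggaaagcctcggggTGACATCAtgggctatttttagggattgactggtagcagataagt
Ier3 (chr17:35821463-35821712, plus strand): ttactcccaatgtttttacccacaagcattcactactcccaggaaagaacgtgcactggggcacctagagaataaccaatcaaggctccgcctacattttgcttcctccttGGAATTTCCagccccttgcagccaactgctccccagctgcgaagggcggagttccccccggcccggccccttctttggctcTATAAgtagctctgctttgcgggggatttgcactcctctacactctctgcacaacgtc
The capitals mark TGACGT and TATAA before Fos, TGACATCA before Jun, and GGAATTTCC and TATAA before Ier3, and no 2 of these matches overlap. TGACGT is the core of a cyclic AMP response element, TGACATCA is the variant AP-1 element known from the Jun promoter, GGAATTTCC is a kappa-B type sequence and TATAA is the core of a TATA box. Counted from the start, with -1 as the last base before it, TGACGT of Fos spanned -66 to -61 and its TATAA -33 to -29. TGACATCA spanned -45 to -38 before Jun, and before Ier3 GGAATTTCC spanned -139 to -131 and TATAA -58 to -54. Among 32851 mouse promoter windows of the same length, read on both strands, TGACGT was found in 7.51%, TATAA in 24.9%, TGACATCA in 3.62% and GGAATTTCC in 0.317%. These 4 motifs were searched after the windows had been read. In the windows not printed, Junb had TATAA after the start, at bases 1 to 5, and Fosb, Fosl2 and Jund had none of them. The 5 other motifs searched, TGANTCA (in 7.81% of all windows), TGACGTCA (1.79%), CACGTG (7.15%), GCGTGGGCG (0.612%) and the CArG box that SRF binds (1.63%), had no match in any of the 7 windows, which says only that these letters are not within them.

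None of the 9 genes passed limma's test at an adjusted p under 0.05, where 0.708% of all genes tested did. The Fos family member Fosl1 and the stress gene Ier3 were the 2 genes whose 3 KO replicates all lay above the 3 wild-type replicates, a pattern that 11.6% of all genes tested showed. Both also had an unadjusted p under 0.05 in the direction of higher in KO, as 8.45% of all genes did. The other 7 genes overlapped between genotypes, and 0 had all KO replicates below wild type (10.9% of all genes). In either direction, 22.5% of all genes did not overlap, against 2 of these 9. The differences were positive for 6 and negative for 3 of the 9 genes, with a median of 0.06 on the log2 scale against 0.02 for all genes tested.

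**Figure D1:**
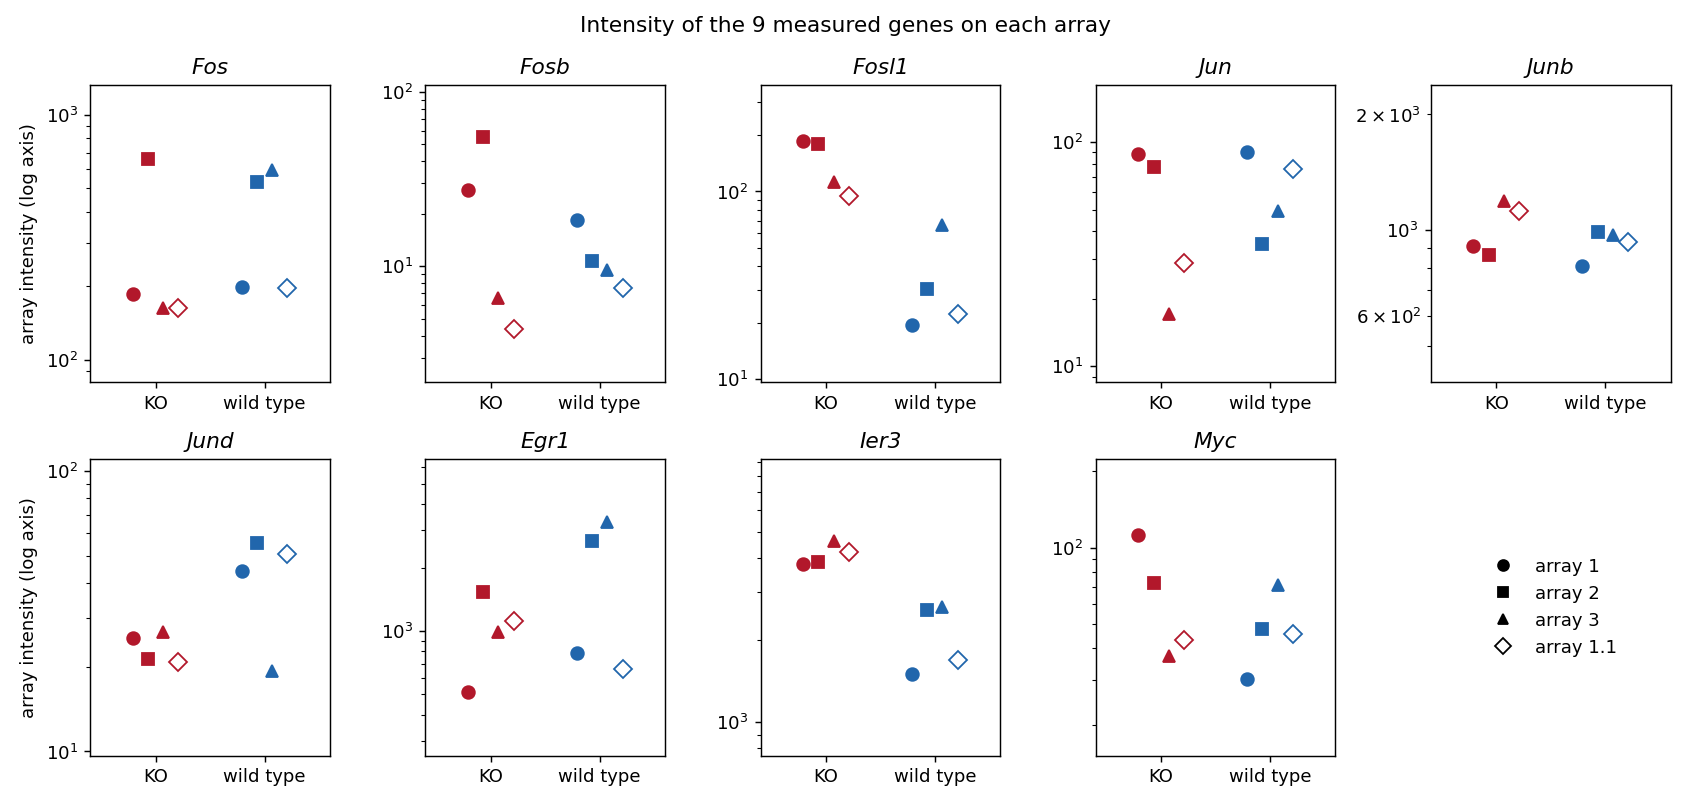
Array intensity (log axis) of the 9 measured genes on the 4 KO arrays (red) and the 4 wild-type arrays (blue), with the symbol giving the array number and open diamonds the arrays numbered 1.1. Fosl1 and Ier3 lie above wild type on all 4 KO arrays, while Fos and Egr1 spread widely within each genotype.

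Fosl1 encodes FRA-1, a Fos protein without the transactivation domain of Fos that accumulates in migrating and wounded keratinocytes. Its probe read 185, 179 and 103 in KO replicates 1, 2 and 3. In wild-type replicates 1, 2 and 3 it read 20.7, 30.1 and 65.9. The lowest KO replicate was thus above the highest wild-type replicate, and KO replicate 3 and wild-type replicate 3 were the nearest of the 2 groups. KO averaged 156 ± 45.6 and wild type 38.9 ± 23.9 (SD, n = 3 each), a ratio of means of 4.0. On the log2 scale with the offset the difference was 1.69 ± 0.34 (SE), or 3.23-fold, with a 95% interval of 0.90 to 2.48 that is not adjusted for the number of genes. The adjusted p from limma was 0.0773, and the gene ranked 169 by p among the 9881. The call depended on single replicates. Without KO replicate 3 Fosl1 passed with a difference of 1.94 (limma adjusted p = 0.0412), and without wild-type replicate 3 it passed with 2.02 (adjusted p = 0.0430). With KO array 1.1 averaged with KO array 1, as labelled, it passed with 1.58 (limma adjusted p = 0.0471). In these settings, in the same order, 2.67%, 0.789% and 2.64% of all genes passed, against 0.708% in the main fit. Fosl1 did not pass without KO replicate 1 or 2 (limma adjusted p = 0.193 and 0.219). Nor did it pass without wild-type replicate 1 or 2 (adjusted p = 0.268 and 0.195). Over all 19 alternatives the difference ran from 1.1 to 2.04 and the adjusted p from 0.0151 to 0.268.

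Ier3 encodes a small protein induced by growth factors, NF-kB and stress that modulates ERK signalling and cell survival. In KO replicates 1, 2 and 3 it read 3817, 3883 and 4432, against 1600, 2574 and 2636 in the wild-type replicates. The KO replicates were close to each other, with a highest over lowest ratio of 1.16, while wild-type replicate 1 was low beside the other two, with a ratio of 1.65. KO averaged 4044 ± 337 and wild type 2270 ± 581 (SD, n = 3 each). The difference was 0.86 ± 0.22 (SE) on the log2 scale, or 1.82-fold, with an unadjusted 95% interval of 0.35 to 1.38 and a limma adjusted p of 0.115. It passed under array weights alone (1.03, limma adjusted p = 0.0347), where 9.51% of all genes passed, against 0.708% in the main fit. Over 19 alternatives the Ier3 difference lay between 0.63 and 1.03.

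Fos, the immediate early partner of Jun, varied more within a genotype than between them. In KO replicates 1, 2 and 3 it read 186, 661 and 163, against 197, 532 and 597 in the wild-type replicates. KO replicate 2 and wild-type replicates 2 and 3 were thus high and the other 3 replicates low, whatever the genotype. The difference was -0.52 ± 0.59 (SE) on the log2 scale with an interval of -1.90 to 0.86 (limma adjusted p = 0.712). It was -1.13 without KO replicate 2 and -0.17 without KO replicate 3. Fosb, a close relative that is usually induced together with Fos, was dim, with 27.3, 54.9 and 5.49 in KO and 13, 10.8 and 9.48 in wild type. KO replicates 1 and 2 lay above and KO replicate 3 below all wild-type replicates. Its difference was 0.59 ± 0.39 (SE) with an interval of -0.33 to 1.51 (limma adjusted p = 0.496). It was 0.18 without KO replicate 2, 1.04 without KO replicate 3 and 0.28 with an offset of 64. Wild-type arrays 1 and 1.1, at 18.4 and 7.55, differed by 0.55 on the log2 scale, more than the range of 0.16 over the wild-type replicates.

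Of the Jun family, Junb was the steadiest gene. JUNB is a partner of Fos proteins that restrains proliferation in epidermis. In KO replicates 1, 2 and 3 it read 913, 862 and 1157, against 870, 991 and 974 in the wild-type replicates. The difference was 0.04 ± 0.16 (SE) on the log2 scale with an interval of -0.35 to 0.42 (limma adjusted p = 0.933). Jun, the founding Jun protein, read 88.3, 77.7 and 22.9 in KO and 83.0, 35.1 and 49.2 in wild type. Replicates of both genotypes were spread over the same levels, with a difference of 0.06 ± 0.41 (SE) and an interval of -0.91 to 1.03 (limma adjusted p = 0.959). The sign of the Jun difference turned in 5 of 19 alternatives. Jund, the Jun gene known for steady expression, read 25.5, 21.5 and 23.7 in KO and 47.4, 55.5 and 19.3 in wild type. The KO replicates lay close together, and wild-type replicate 3 lay below all of them, away from the other two. The difference was -0.46 ± 0.27 (SE) with an interval of -1.08 to 0.16 (limma adjusted p = 0.435). It was -0.26 without wild-type replicate 2 and -0.77 without wild-type replicate 3.

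**Figure D2:**
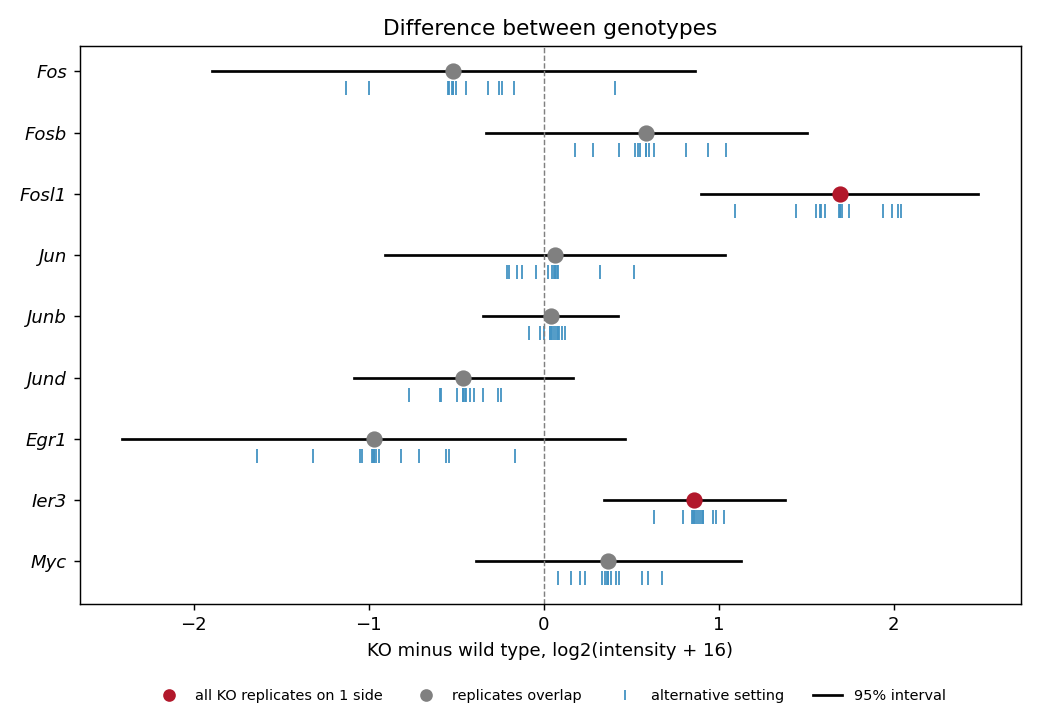
Difference between genotypes (KO minus wild type in log2(intensity + 16), horizontal axis) for the 9 genes, with the unadjusted 95% interval as a line and the values under the alternative settings as ticks below it. Red points mark Fosl1 (1.69) and Ier3 (0.86), whose replicates did not overlap, and the intervals of the other 7 genes include 0.

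Egr1 encodes a zinc finger transcription factor that is induced through SRF together with Fos. In KO replicates 1, 2 and 3 it read 512, 1523 and 1053, against 724, 2662 and 3288 in the wild-type replicates. Wild-type replicate 1 lay within the KO range and the other two above it. KO averaged 1029 ± 506 and wild type 2225 ± 1336 (SD, n = 3 each). The difference of -0.97 ± 0.61 (SE) on the log2 scale had an interval of -2.41 to 0.47 and did not pass (limma adjusted p = 0.471). It was the most negative difference of the 9 genes and ran from -1.64, without wild-type replicate 1, to -0.16, under array weights, over 19 alternatives. It was -0.54 without KO replicate 1 and -0.56 without wild-type replicate 3.

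Myc encodes the basic helix-loop-helix factor that binds DNA with Max. In KO replicates 1, 2 and 3 its brighter probe read 112, 72.4 and 40.2, against 37.9, 47.7 and 71.2 in the wild-type replicates. The groups overlapped, with a difference of 0.37 ± 0.32 (SE) on the log2 scale and an interval of -0.39 to 1.13 (limma adjusted p = 0.615). It was 0.08 without KO replicate 1 and 0.68 without KO replicate 3. The second Myc probe was above background on KO arrays 1 and 2 only, at 16.8 and 7.0, and on 0 of the 4 wild-type arrays. KO replicates 1 and 2 were also the highest by the brighter probe, which placed wild-type replicate 3 just below them.

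The spread within a genotype was large for most of these genes. The within-genotype SD on the log2 scale was 1.00 for Egr1 and 0.96 for Fos, above that of 97.9% and 97.7% of all genes tested, whose median was 0.23. It was 0.65 for Jun, 0.62 for Fosb, 0.52 for Fosl1, 0.49 for Myc, 0.39 for Jund, 0.30 for Ier3 and 0.17 for Junb. Thus 8 of the 9 genes lay above the median of all genes by this spread, and Junb did not. The arrays averaged as repeats differed far less for Fos, by 0.003 in KO and 0.02 in wild type, and for Egr1, by 0.17 and 0.25. The KO pair had been chosen because its arrays agree. In the pair as labelled, KO arrays 1 and 1.1, Egr1 read 512 and 1115 and Fos 186 and 163. For Jun the repeats differed by 0.44 in KO and for Myc by 0.42 in wild type, against within-genotype SDs of 0.65 and 0.49.

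KO replicate 2 and wild-type replicates 2 and 3 had the 3 highest values of both genes. The highest over lowest ratio within a genotype was 4.06 in KO and 3.03 in wild type for Fos, and 2.98 and 4.54 for Egr1. KO replicate 3, however, was the lowest of all for Fos and in the middle for Egr1. Their log2 profiles over the 6 replicates, each centred on its own mean, lay a root mean square distance of 0.53 apart, and those of Fosl1 and Ier3 0.57 apart. Other pairs lay closer, among them Junb and Jund (0.43), Fosb and Jun (0.44) and Junb and Ier3 (0.45). The distance is small between genes that vary little, as Junb did (within-genotype SD 0.17). It therefore does not rank pairs by how alike their patterns are. Fos and Fosl1, of the same family, lay 1.26 apart.

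**Figure D3:**
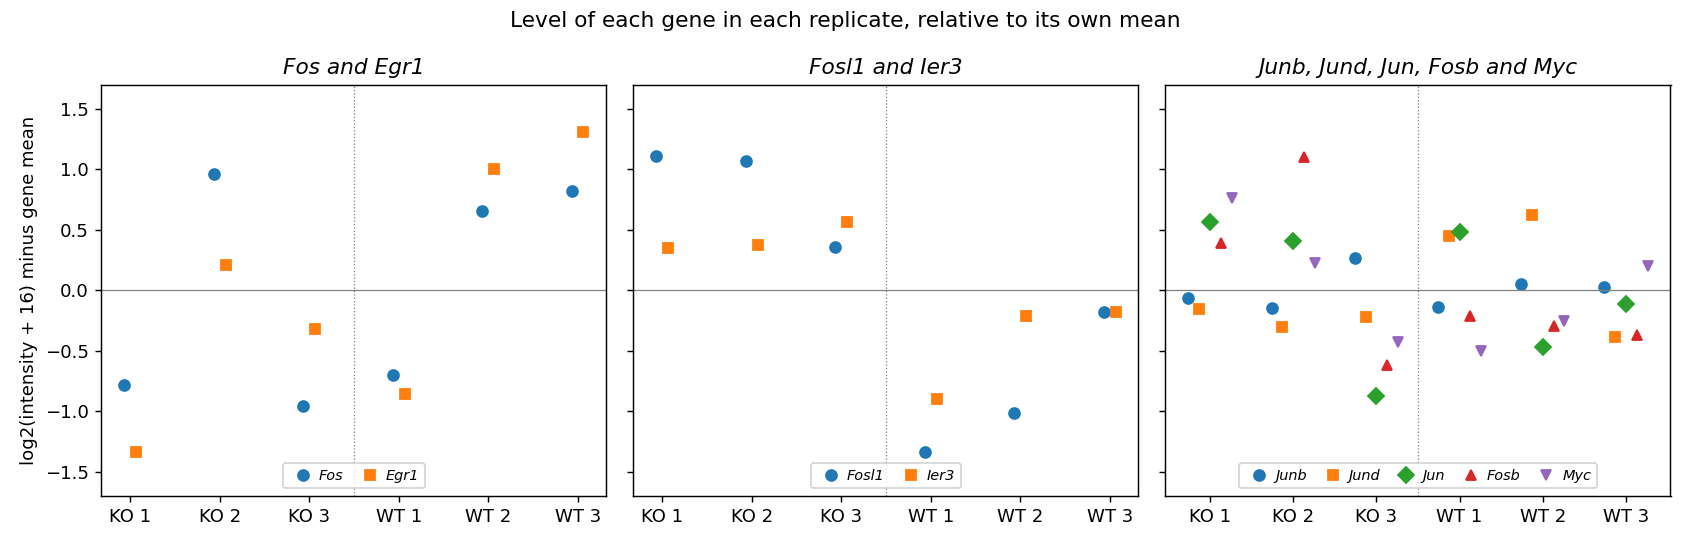
Level of each gene in the 6 replicates in log2(intensity + 16), minus the mean of that gene, with KO left and wild type (WT) right of the dotted line. Fos and Egr1 are high in KO replicate 2 and wild-type replicates 2 and 3, while Fosl1 and Ier3 are above 0 in every KO replicate and below 0 in every wild-type replicate.

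The genes whose profile over the 6 replicates lay nearest to that of Fosl1, the gene with the largest difference, were Col4a2, Hbegf and Nrp1. The distances to Fosl1 were 0.14, 0.18 and 0.22 on the log2 scale, against a median of 0.96 over all genes. Because Fosl1 itself varied widely, a gene that hardly varied also lay far from it, so this median is no measure of unlike patterns. Hbegf, a ligand of the EGF receptor, read 476, 634 and 336 in KO replicates 1, 2 and 3, against 96.4, 133 and 284 in the wild-type replicates. As for Fosl1, the KO replicates were above wild type, and the third replicate of each genotype was nearest to the other genotype. Col4a2, a basement membrane collagen chain, differed by 1.56 ± 0.40 (SE) and Nrp1, a co-receptor of semaphorins and VEGF, by 1.72 ± 0.44 (limma adjusted p = 0.115 for both). Since these genes were chosen because their profiles lay near that of Fosl1, these values are a description.

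Genes around these factors were described in 7 lists, which together had 109 tested genes besides the factors. Only Plaur passed limma's test, 1 of 109, where 0.708% of all genes tested passed. The lists share a few members. The list of 29 other immediate early genes had 0 called genes, 8 with an unadjusted p under 0.05 higher and 2 lower in KO, against 8.45% and 8.68% of all genes. Every KO replicate lay above wild type for 9 of the 29 genes, against 11.6% of all genes, and below it for 2, against 10.9%. The median difference was 0.19. Of the list's brightest genes, the zinc finger factor Klf6 differed by 0.18 ± 0.22 (SE) and the pleckstrin homology gene Phlda1 by 1.25 ± 0.32, with 6174, 5684 and 5545 in KO and 1407, 2945 and 3481 in wild type (limma adjusted p = 0.735 and 0.116). The genes with the largest differences, chosen after their values were seen, were the matricellular genes Ccn2 and Ccn1, with 2.44 ± 0.50 and 2.00 ± 0.52 (adjusted p = 0.0791 and 0.117). Ccn2 read 2623, 5026 and 1647 in KO replicates 1, 2 and 3, against 501, 282 and 884 in the wild-type replicates. The most negative was Zfp36l1, an RNA-binding protein that promotes decay of early transcripts, also chosen afterwards, with -0.98 ± 0.18 (adjusted p = 0.0637). None of these named genes passed the test.

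No upstream or partner gene passed the test, where 0.708% of all genes did. The counts of these lists at an unadjusted p stand beside 8.45% of all genes higher and 8.68% lower. Of 16 tested genes of the MAP kinase and SRF list, 0 were called, 1 had an unadjusted p under 0.05 higher and 1 lower, with a median of 0.14. The GTPase Nras differed by -0.16 ± 0.14 (SE) and the p38 kinase activator Map2k3 by 0.82 ± 0.22 (limma adjusted p = 0.623 and 0.122). Of 10 tested AP-1 dimer partners, 0 were called, 1 had an unadjusted p under 0.05 higher and 2 lower, with a median of -0.16. Atf2, a partner of Jun, differed by -0.15 ± 0.15 and the small Maf protein gene Mafg by 0.76 ± 0.20 (adjusted p = 0.662 and 0.121). Of 4 tested genes of the EGR and NAB list, which includes the corepressors that bind EGR1, 0 were called and 1 had an unadjusted p under 0.05, lower. Nab1 differed by -0.81 ± 0.24 and Nab2 by 0.31 ± 0.23 (adjusted p = 0.153 and 0.546).

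Of 18 tested genes known as AP-1 targets, 1 rose, 0 fell and 17 did not pass, where 0.708% of all genes passed. At an unadjusted p under 0.05, 5 were higher and 3 lower, against 8.45% and 8.68% of all genes, and the median difference was -0.15. Plaur, the urokinase receptor, read 628, 612 and 379 in KO replicates 1, 2 and 3, against 53.4, 83.3 and 169 in the wild-type replicates, again with the third replicates nearest. It rose by 2.32 ± 0.37 (SE) on the log2 scale with a limma adjusted p of 0.0497, so it only just passed, and it lost the call in 10 of 19 alternatives, in which the adjusted p reached 0.166. Ccnd1, chosen after its values were seen, differed by 1.41 ± 0.31 (limma adjusted p = 0.0925). Vegfa, the most negative of the list, and Cdkn1a, also chosen afterwards, differed by -1.07 ± 0.25 and -0.49 ± 0.21 (adjusted p = 0.106 and 0.285). The 5 epidermal differentiation genes of the list, Ivl, Lor, Sprr1a, Sprr1b and Tgm1, were singled out after their values were seen, and none passed. Ivl, a cornified envelope precursor, read 105, 132 and 793 in KO replicates 1, 2 and 3, against 81.8, 57.9 and 32.2 in the wild-type replicates (1.79 ± 0.69, adjusted p = 0.249). Lor, the main cornified envelope protein, read 227, 266 and 3037 in KO against 167 to 375 in wild type (1.13 ± 0.91, adjusted p = 0.583). The cornified envelope genes Sprr1a and Sprr1b differed by -0.60 ± 0.70 and -0.23 ± 0.45 (adjusted p = 0.714 and 0.844), and the cross-linking enzyme gene Tgm1 differed by 0.76 (adjusted p = 0.484). KO replicate 3, the KO replicate with the lowest Fosl1, was the highest of all 6 replicates for these 5 genes, and their part in the Fosl1 result was not tested. The 4 tested matrix metalloprotease genes, Mmp3, Mmp9, Mmp10 and Mmp13, also singled out afterwards, differed by -0.42, -0.77, -0.59 and -0.67, and the urokinase gene Plau by 0.66 (adjusted p from 0.154 for Plau to 0.701 for Mmp3).

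The Myc network and its known targets had 0 called genes, where 0.708% of all genes were called. In the network list of 9 tested genes the median was 0.02, with 1 gene higher and 1 lower at an unadjusted p under 0.05, where 8.45% and 8.68% of all genes were. Max, the partner of Myc, differed by 0.16 ± 0.14 (SE) and the Myc-binding factor Zbtb17 by 0.16 ± 0.16 (limma adjusted p = 0.597 and 0.677). The most negative was Mycl, a Myc family gene chosen after its values were seen, with 32.1, 29.1 and 70.6 in KO replicates 1, 2 and 3, against 184, 114 and 128 in the wild-type replicates. Its difference was -1.44 ± 0.29 with an adjusted p of 0.0773. Of 27 tested Myc targets, 2 were higher and 1 lower at an unadjusted p under 0.05, against the same shares of all genes, with a median of 0.08. The nucleolar chaperone gene Npm1 and the nucleoside diphosphate kinase gene Nme1, its brightest, differed by 0.12 ± 0.17 and 0.10 ± 0.16 (adjusted p = 0.760 and 0.810). The largest difference in the list was that of Odc1, ornithine decarboxylase, chosen afterwards, with 1.53 ± 0.39 (adjusted p = 0.115).

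**Figure D4:**
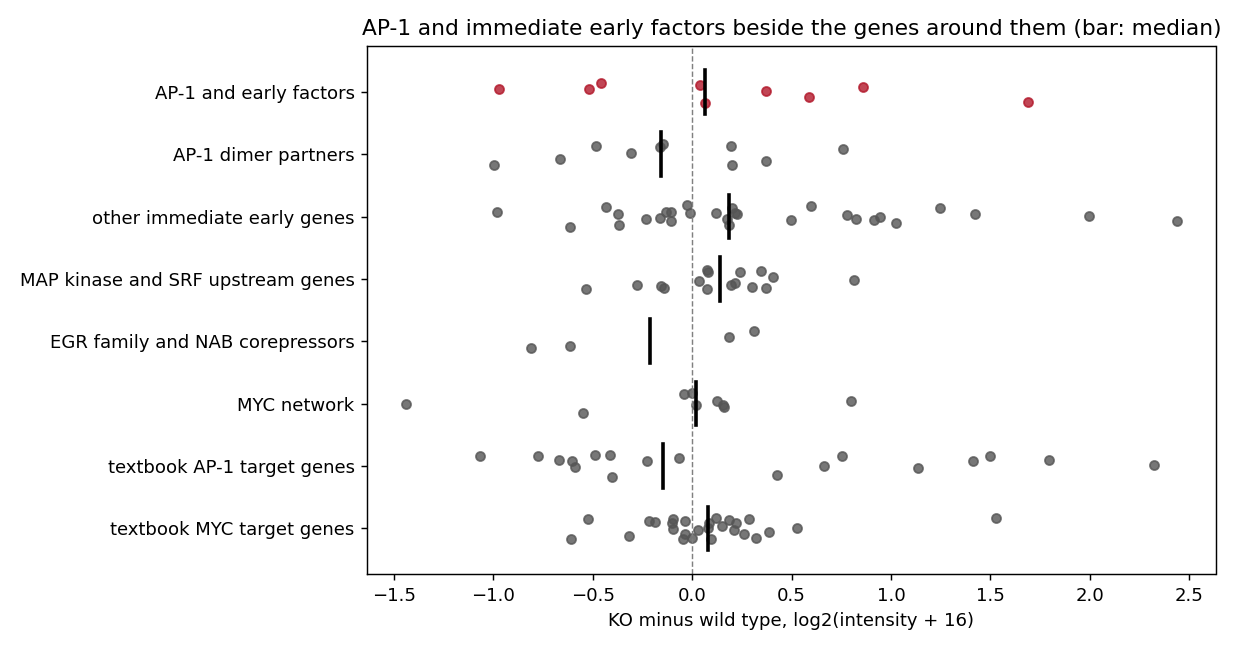
Difference between genotypes (KO minus wild type in log2(intensity + 16)) of each tested gene in the 7 lists and of the 9 AP-1 and immediate early genes (red), with the median of each row as a black bar. The medians lie between -0.21 and 0.19, and single genes reach 2.44 in the list of other immediate early genes.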

How the data were processed

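Per the labels' protocols, biotinylated cRNA was prepared from total RNA for Illumina arrays. The deposited values are linear intensities, 1 for each probe on each array, and the steps behind them are not given in the sources used here. Its values include negatives (27.1% to 27.3% per array, minimum -12.8) and share 1 maximum (20141), as background subtraction and quantile normalization leave them. A further table of non-normalized signals was not used, because its 16 value columns match no sample label.

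An offset of 16 was added before log2. The background limit (6.30) leaves 5% of the negative values, mirrored around 0, above it, and probes above it on at least 3 arrays were kept. Probe names are those of the platform annotation and can be outdated. Of several bright probes of a gene, that with the highest mean log2 was tested. Close arrays were averaged, and 3 KO were compared with 3 wild-type replicates by limma's lmFit and eBayes with Benjamini-Hochberg adjustment over 9881 genes. The fit was also run on simulated data with independent normal errors. These hold no replicate that stands apart from the others, so the run does not show how well the calls hold here.

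The 10 genes and the lists were chosen with earlier results of these data known. Each list names every called gene where 5 or fewer were called, or otherwise its 2 brightest. The main fit had no block for the replicate number. Over all genes, the deviations of same-numbered replicates had correlations of 0.06, 0.02 and -0.35, too few to decide on a pairing. The labels give no batch or scan date. The number of arrays limits the precision. R 4.3.3, limma 3.58.1 and matplotlib 3.10.9 were used.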

Additional observations from a re-analysis of the deposited data

How the results depend on the processing

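The number of genes called over all genes, 70, was within 1.5 times that value in 10 of 19 alternatives. It was 261 with KO array 1.1 averaged with KO array 1 as labelled, 21 with the replicate block, 16 with an offset of 4 and 940 with array weights, and it ran from 5 to 264 when each replicate was left out. Of the 9 AP-1 and immediate early genes, 0 were called lower in every alternative run. Those called higher, 0, were 1 as labelled (Fosl1), 2 under array weights (Fosl1 and Ier3), and 0 to 1 when each replicate was left out. The median difference of the 9 genes, 0.06, was 0.41 under array weights and ran from 0.063 to 0.52 when each replicate was left out, the highest without KO replicate 3.

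Genes of the 7 lists called, 1, became 3 as labelled, 2 with the trend and robust prior and 23 under array weights. Of all genes tested, 2.64%, 0.759% and 9.51% were called in these settings, against 0.708% in the main fit. They became 0 without both 1.1 arrays, with the replicate block, with an offset of 4 or 64, with the mean of bright probes, and with the brightest probe taken by mean intensity, an alternative chosen after seeing the data. The list genes called ran from 0 to 9 when each replicate was left out, with 9 without KO replicate 3, where 2.67% of all genes were called. Plaur had an adjusted p of 0.0504 by mean intensity and 0.153 with the replicate block. Whether the same replicate number marks a shared source is not known, and correlations over so few replicates cannot decide it. The block called none of the 9 genes. With it the SE of Egr1 was 0.26 in place of 0.61 (limma adjusted p = 0.227). The SE of Fosl1 was 0.39 in place of 0.34 (limma adjusted p = 0.196).

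Fos read 0.41 under array weights in place of -0.52. Jun read -0.21 as labelled, -0.043 without both 1.1 arrays, and -0.20 to 0.52 when each replicate was left out, with -0.20 and -0.12 without KO replicates 1 and 2 and -0.15 without wild-type replicate 2. Junb ran from -0.086 (without KO replicate 3) to 0.123 when each replicate was left out and read -0.019 without wild-type replicate 1. The signs of the other 6 genes held in every alternative that gave them a value, and Fosb was not tested where all 8 arrays had to be above background. The cause of these changes was not tested. Signal limits Fosb, Jund, the second Myc probe, wild-type Fosl1, the matrix metalloprotease genes and Plau, which are dim. The Fosl1 difference was 1.99 with an offset of 4 and 1.1 with an offset of 64.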
